A study of Rattus norvegicus with 4 samples.

Results

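Of the 4965 Olig2 peaks called in vehicle-treated rat oligodendrocytes, 956 had no Olig2 peak at the same place after lysolecithin although the site lay on an H3K27Ac peak in both conditions. A site entered this set when its Olig2 peak shared 0 bp with every Olig2 peak of the lysolecithin list and at least 1 bp with an H3K27Ac peak of each condition. By the first criterion alone, 36.0% of the vehicle Olig2 peaks were missing from the lysolecithin list. By the second alone, 54.9% of them were acetylated in both conditions, and 19.3% met both. The sites were thus chosen by measured values, the presence and position of called peaks in all 4 lists, and these figures are given as a description. The closest relatives of the 956 sites are the 1772 vehicle Olig2 peaks that also lay on H3K27Ac of both conditions but were kept in the lysolecithin list, so that 35.0% of the 2728 doubly acetylated Olig2 sites were missing. A further 653 missing Olig2 peaks had no H3K27Ac peak in either condition, and 176 had a peak in 1 condition alone.

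Olig2 is a basic helix-loop-helix transcription factor that binds E-box DNA, specifies the oligodendrocyte lineage and takes part in recruiting chromatin remodelling enzymes to enhancers as these cells differentiate. H3K27Ac, acetylation of lysine 27 of histone H3, is written by the acetyltransferases p300 and CBP on the nucleosomes of active promoters and enhancers. Where a factor holds DNA free of nucleosomes, the mark usually flanks the bound stretch and dips in its middle. A site can therefore lose a factor and keep its acetylation, or change both. The rule used here asks only for a called H3K27Ac peak in each condition, so the set can hold sites of both kinds.

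The cells were rat oligodendrocytes obtained from mixed glia by way of B104-conditioned medium, as precursors grown in PDGF-AA (10 ng/ml) and bFGF (20 ng/ml) and then differentiated in thyroid hormone T3 (15 nM) and ciliary neurotrophic factor (10 ng/ml). One group received lysolecithin (lysophosphatidylcholine, LPC, a membrane-active lipid used experimentally to strip myelin) for 6 h, and the other vehicle. The labels write the LPC dose as 12.5 mM. Whether that unit is right was not established here. There was 1 library for each antibody (H3K27Ac or Olig2) and condition, and the composition of the vehicle, the number of animals and the read depth were not known. The vehicle and LPC lists held 38902 and 38721 H3K27Ac peaks and 4965 and 3229 Olig2 peaks. With single libraries, no difference below can be set against the spread between cultures. Intervals are 95% intervals for counting error alone, and they treat neighbouring peaks as independent. A peak list without heights records only whether a site was called, so reduced binding and reduced yield of the LPC Olig2 library cannot be told apart. An annotation of the rat build rn4, to which all coordinates refer, was not used here, so no site is assigned to a gene.

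Acetylation around the missing Olig2 sites had a similar median extent in both conditions, and its extent changed by more than 10% at about as many sites as it did not. H3K27Ac peaks covered a median of 1524 bp (quartiles 1047 and 1855 bp) of the 2000 bp around the Olig2 midpoint in vehicle and 1616 bp (1204 and 1914 bp) in LPC. At 477 of the 956 sites (49.9%, interval 46.7 to 53.1) the LPC coverage lay within 10% of the vehicle coverage, against 53.9% of kept sites and 52.5% of all doubly acetylated Olig2 sites. The difference from kept sites was -4.00 points (-7.92 to -0.07). Coverage was at least 2 times the vehicle value at 42 sites (4.39%, background 4.18%) and at most 0.5 times at 22 sites (2.30%, background 1.65%). Acetylation of these sites was thus stable in the sense that a peak was called in both lists, and not in the sense of equal extent at every site.

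The balance between sites that gained and sites that shed acetylated bases differed between missing and kept Olig2 sites. H3K27Ac covered fewer bases in LPC than in vehicle at 313 of the 956 missing sites (32.7%, 29.8 to 35.8), where the background over all 2728 sites was 28.2%. Among the kept sites the number was 457 of 1772 (25.8%, 23.8 to 27.9). The difference was 6.95 percentage points (3.38 to 10.58). It was 6.19 points (2.21 to 10.17) after standardising over 5 classes of Olig2 peak length, and the missing sites had the higher share in 5 of 5 classes, though the interval included 0 in 4 of them. Over finer classes they had it in 9 of 10 and in 15 of 20. Losses of at least 500 bp were found at 36 missing sites (3.77%, background 2.68%) and at 37 kept sites (2.09%).

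Gains were the more common change at missing and at kept sites alike. The whole LPC H3K27Ac list also covered more bases, 41.7 Mb against 34.4 Mb in vehicle, and the part of that in these gains was not tested. LPC coverage exceeded vehicle coverage at 575 missing sites (60.1%, 57.0 to 63.3; background 61.9%) and at 1114 kept sites (62.9%, 60.6 to 65.1), a difference of -2.72 points (-6.56 to 1.09). After standardising over 5 length classes it was -4.46 points (-8.59 to -0.33). Gains of at least 500 bp were found at 83 missing sites (8.68%, background 8.98%) and at 162 kept sites (9.14%). The rest of the balance was made up by sites with equal coverage, which were 68 of the missing (7.11%, background 9.86%) and 201 of the kept sites (11.3%). All 68 of these missing sites had a window that was acetylated from end to end in both conditions (background 9.75%).

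**Figure D1:**
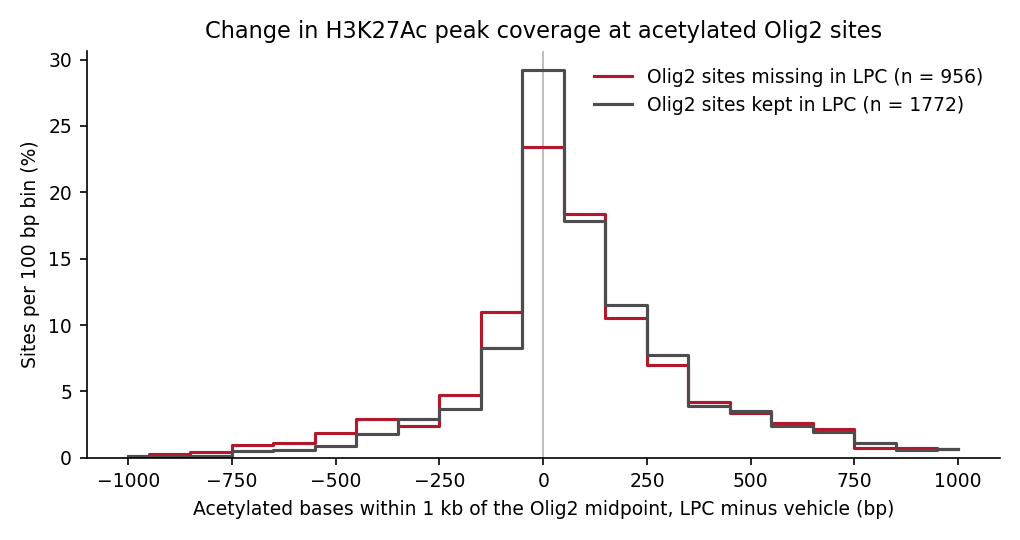
Change in H3K27Ac peak coverage (LPC minus vehicle, in bp) within 1 kb of the Olig2 midpoint, as the percentage of sites per 100 bp bin, for the 956 missing (red) and 1772 kept (grey) Olig2 sites on H3K27Ac of both conditions. The central bin holds 23.4% of missing and 29.2% of kept sites, and the red line lies above the grey one in the bin centred on -100 bp (11.0% against 8.30%); 5 missing and 9 kept sites fall outside the plotted range.

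The Olig2 midpoint itself was under an H3K27Ac peak at most missing sites, and in LPC this held for fewer of them than of the kept sites. In vehicle, 784 missing sites (82.0%, 79.4 to 84.4; background 81.6%) had an acetylated midpoint, against 81.4% of kept sites. In LPC the numbers were 820 (85.8%, 83.4 to 87.9; background 88.0%) and 89.2% (87.7 to 90.6), a difference of -3.45 points (-6.17 to -0.87). Both conditions marked the midpoint at 717 missing sites (75.0%, background 76.0%). Vehicle alone marked it at 67 (7.01%, background 5.61%), LPC alone at 103 (10.8%, background 12.0%) and neither at 69 (7.22%, background 6.38%). Among kept sites, vehicle alone marked 4.85% and LPC alone 12.7%.

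The average profile had a shallow dip at its centre. At missing sites in vehicle, 86.2% were acetylated 300 bp to the left of the midpoint, 82.0% at the midpoint and 85.6% at 300 bp to the right. In LPC these values were 90.1%, 85.8% and 88.4%, so the dip was still there in the condition without an Olig2 peak. At kept sites the vehicle values were 86.1%, 81.4% and 87.4%, and the LPC values 91.4%, 89.2% and 90.6%. In LPC the dip was thus deeper at missing sites than at kept sites, which still had an Olig2 peak. These values carry no interval, and what the dip reflects was not tested. On the flanks the profiles of missing sites were lower than those of kept sites in both conditions. At 1 kb to the left and right, 38.5% and 38.8% of missing sites were acetylated in vehicle and 42.3% and 40.6% in LPC, against 42.9% and 43.1% of kept sites in vehicle and 49.2% and 48.4% in LPC.

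**Figure D2:**
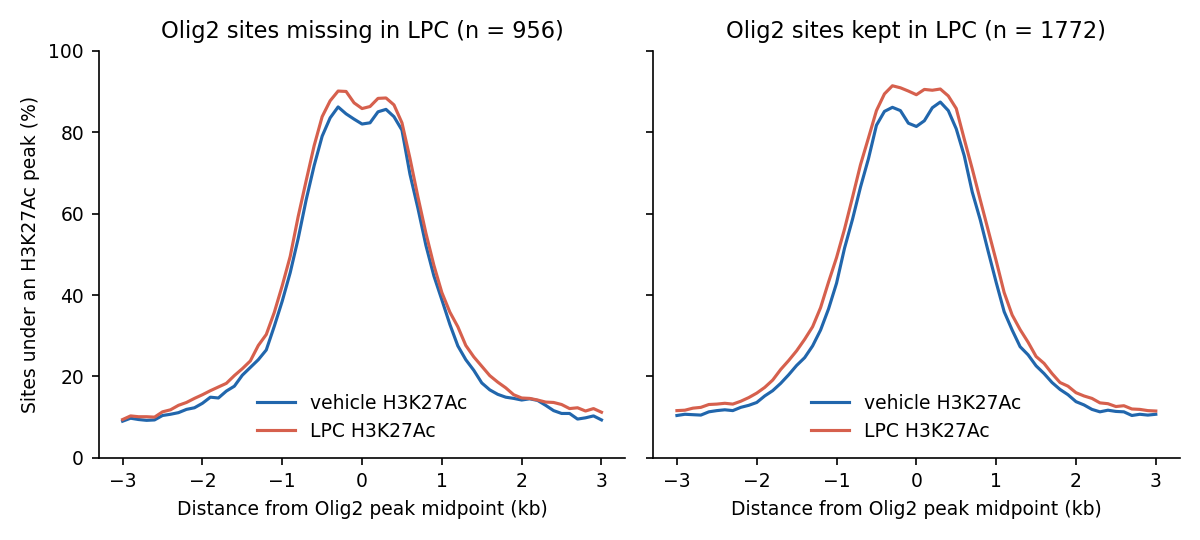
Percentage of Olig2 sites under an H3K27Ac peak (vertical axis) by distance from the Olig2 peak midpoint in kb (horizontal axis), for the 956 missing sites (left) and the 1772 kept sites (right), with vehicle in blue and LPC in red. The lines dip at the midpoint, to 82.0% in vehicle and 85.8% in LPC at missing sites and to 81.4% and 89.2% at kept sites.

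Breaks in the acetylation can also be read from the number of H3K27Ac peaks under each Olig2 peak, since a gap between neighbouring peaks splits the acetylated stretch. At 385 missing sites (40.3%, 37.1 to 43.5; background 41.9%) the Olig2 peak touched at least 2 vehicle H3K27Ac peaks, and at 249 (26.0%, 23.3 to 29.0; background 24.6%) at least 2 LPC peaks. At 230 sites (24.1%, background 25.5%) there were at least 2 vehicle peaks and 1 LPC peak. At 94 sites (9.83%, 8.02 to 11.9; background 8.21%) there were 1 vehicle peak and at least 2 LPC peaks. The share among kept sites was 7.34%, a difference of 2.50 points (0.33 to 4.84). Both lists had at least 2 peaks at 155 sites (16.2%, background 16.4%) and 1 peak at 477 (49.9%, background 49.9%). A count of 1 need not mean an unbroken stretch, since a peak can be absent altogether. At chr3:38857161-38858157, for example, 2 vehicle peaks covered 688 bp of the Olig2 peak and 1 LPC peak covered 53 bp. Closing of a gap and absence of a peak were not separated in these counts.

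These gaps were short, and most did not include the Olig2 midpoint. The 405 vehicle gaps under missing sites had a median width of 88 bp (quartiles 47 and 154 bp), and 92 of them (22.7%) included the Olig2 midpoint. Their centres lay a median of 138 bp from the midpoint, against 132.5 bp under kept sites. The H3K27Ac peaks on both sides of a gap had to touch the same Olig2 peak, so this closeness is largely set by the definition. LPC H3K27Ac peaks covered 251 of them completely (62.0%, 57.1 to 66.7), 116 in part and 38 not at all. Under kept sites 520 of 784 vehicle gaps were covered completely (66.3%, 62.9 to 69.6), and the difference was -4.35 points (-10.15 to 1.35). Gaps of at most 1 kb elsewhere in the vehicle H3K27Ac list, with no vehicle Olig2 peak, were covered in 47.2% of 12470 cases, but they were also wider, with a median of 131 bp. In the other direction, vehicle peaks covered 97 of the 252 LPC gaps under missing sites (38.5%) and 38.9% of those under kept sites. LPC gaps of at most 1 kb without a vehicle Olig2 peak were covered in 20.6% of 10452 cases. Their median width was 120 bp, against 83.5 bp under missing sites. The rule put an H3K27Ac peak of each condition on every missing and kept site, but asked for none at these other gaps. Both contrasts with other gaps therefore follow in part from the rule and are no separate result. The LPC H3K27Ac list has longer peaks in general (median 823 bp against 674 bp), and the part of that in the closing of gaps was not tested.

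Missing sites had shorter Olig2 peaks than kept ones. Their median length was 1134 bp (quartiles 943 and 1409 bp, range 474 to 5217 bp), against 1258 bp (1032 and 1530 bp) for kept sites, a ratio of 0.901. Missing Olig2 peaks without any H3K27Ac peak were shorter still, with a median of 858 bp, and those acetylated in 1 condition alone had 936 bp. Long Olig2 peaks were acetylated more often: in the longest 20% of the vehicle list 86.4% lay on H3K27Ac of both conditions, against 24.1% in the shortest 20%.

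The difference in loss between doubly acetylated and other Olig2 peaks changed sign when it was standardised over classes of peak length. Before that, its interval included 0. Without regard to length, 35.0% of the doubly acetylated Olig2 sites and 829 of the 2237 other vehicle Olig2 peaks (37.1%) were missing in LPC, a difference of -2.01 points (-4.70 to 0.67). Standardised over 5 length classes, doubly acetylated sites were missing more often, by 4.66 points (1.64 to 7.67). The difference was 4.72 points over 10 classes and 4.91 points over 20. Doubly acetylated sites had the higher share in 5 of 5, 7 of 10 and 15 of 20 classes. Of the 5 classes, the one from 985 to 1144 bp showed it most, with 36.4% (32.3 to 40.6) of doubly acetylated and 25.6% (21.7 to 29.9) of other peaks missing. In the class from 847 to 985 bp the shares were 45.7% (40.7 to 50.8) and 37.9% (33.9 to 41.9). In the shortest class they were 48.5% and 48.3%, from 1144 to 1402 bp 31.5% and 29.6%, and in the longest class 28.4% and 25.9%. In each of these classes the interval of the difference included 0. Peak length is the only measure of size in these lists and comes from the same Olig2 library that chose the sites. Neither how the acetylated background bears on peak length nor how length relates to binding strength was tested.

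**Figure D3:**
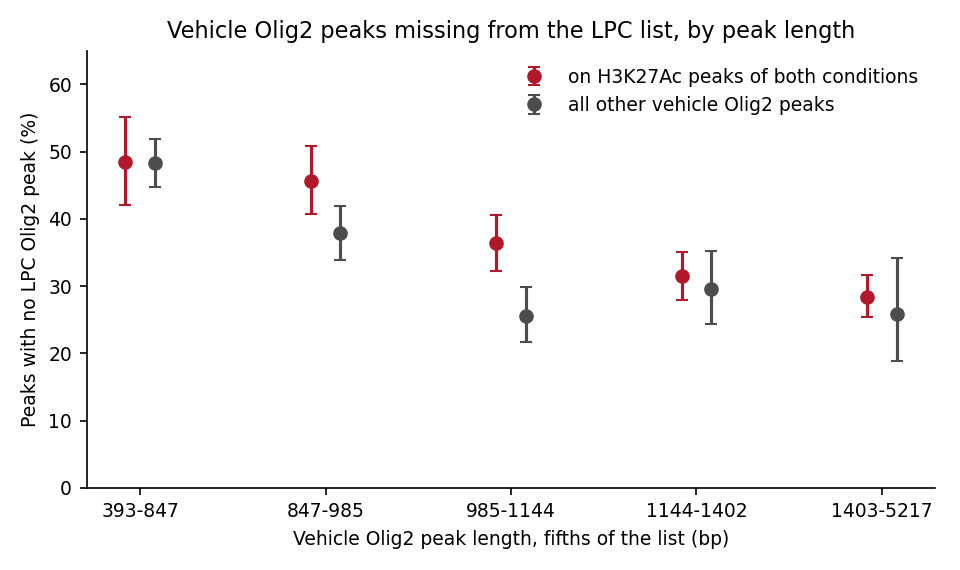
Percentage of vehicle Olig2 peaks with no LPC Olig2 peak, in 5 equal classes of vehicle Olig2 peak length (bp), for peaks on H3K27Ac of both conditions (red) and all others (grey), with 95% exact binomial intervals for counting error. In red the share falls from 48.5% in the shortest class to 28.4% in the longest, and in the class from 985 to 1144 bp it is 36.4% in red and 25.6% in grey.

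The longest H3K27Ac peaks under missing Olig2 sites ranked high by length in their lists, as did those under kept sites. The longest vehicle H3K27Ac peak under a missing site had a median of 1186 bp, which stands at a median percentile of 80.2 in the vehicle list, and its LPC counterpart had 1447 bp. Under kept sites the medians were 1256 and 1622 bp, and the vehicle one stood at a median percentile of 82.4. In the LPC list the median percentile was lower under missing sites, at 78.3 against 83.0 under kept sites. The longest overlapped peak was taken at each site, and a long peak is more easily overlapped. High percentiles therefore follow in part from the measure. H3K27Ac peaks covered a median of 91.6% of each missing Olig2 peak in vehicle and 97.6% in LPC. Both lists covered the whole Olig2 peak at 191 missing sites (20.0%, 17.5 to 22.7; background 22.7%) and at 24.2% of kept sites, a difference of -4.23 points (-7.40 to -0.95). Vehicle H3K27Ac peaks of at least 5 kb carried 17 missing sites (1.78%, background 2.09%), and joined domains of at least 30 kb held 142 (14.9%, background 15.8%).

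Most missing sites, like most doubly acetylated Olig2 sites, were the only vehicle Olig2 peak of their acetylated region. When the H3K27Ac peaks of both conditions were pooled and joined within 1 kb, the missing sites fell in 948 regions, of which 940 held 1 missing site and 8 held 2. Of the missing sites, 904 (94.6%, background 94.5%) were alone in their region. Since the rule asks for no LPC Olig2 peak on the site, the 914 regions (96.4%) without an LPC Olig2 peak follow largely from that spacing and are no separate result. A kept Olig2 site shared the region of 35 missing sites (3.66%, 2.56 to 5.06; background 3.74%), and another kept site shared the region of 67 kept sites (3.78%). The share for missing sites was 1.67% without joining and 7.74% with joining over 5 kb, so it depends on that distance. With peaks joined over 12.5 kb, a kept Olig2 site shared the domain of 138 missing sites (14.4%, 12.3 to 16.8; background 15.8%), and another kept site that of 16.5% of kept sites.

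By the median, the 956 sites lay nearer to an LPC Olig2 peak than all missing Olig2 peaks, which include them. They also lay nearer to other vehicle Olig2 peaks. The nearest LPC Olig2 peak was a median of 152600 bp away (quartiles 38680 and 408400 bp). Over all 1785 missing Olig2 peaks the median was 191700 bp. It was 236600 bp for those without H3K27Ac and 186900 bp for those acetylated in 1 condition alone. The gap to the nearest other vehicle Olig2 peak had a median of 87730 bp at the 956 sites. Over all missing Olig2 peaks it was 103900 bp, and for those without H3K27Ac 130100 bp. The part of this spacing in the distances to LPC peaks was not tested. Of the 956 sites, 13 (1.36%, 0.726 to 2.31) had one within 1 kb, 57 (5.96%) within 5 kb and 86 (9.0%) within 10 kb. The rule excludes sites that an LPC peak overlaps, and no such shares are given here for other missing peaks. At each of these 86 sites the nearest LPC peak overlapped another vehicle Olig2 peak, as did all but 48 of the 3229 LPC Olig2 peaks (1.49%).

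Neighbours of missing Olig2 sites were missing about as often as neighbours of kept ones. Another vehicle Olig2 peak lay within 50 kb of 368 missing sites (38.5%, background 39.4%). That nearest neighbour was missing too in 136 cases (37.0%, 32.0 to 42.1), against 34.7% over all vehicle Olig2 peaks with such a neighbour. For kept sites with a neighbour within 50 kb it was missing in 245 of 707 (34.7%), a difference of 2.30 points (-3.66 to 8.39).

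In 4 acetylated domains there were 3 or more missing sites, and they are shown because they display the pattern at close range. They were picked after their counts had been seen. The domain with most of them spanned 82.5 kb (chr1:44710967-44793468) and had 6 vehicle Olig2 peaks, of which 5 were missing and 1 was kept. H3K27Ac peaks covered 40.4 kb of it in vehicle and 43.5 kb in LPC, and their number went from 22 to 16. The longest of its missing sites (chr1:44723399-44725510, 2112 bp) was under H3K27Ac over 2112 bp in vehicle and 2095 bp in LPC. Next to each other, 445 bp apart, were the missing sites chr1:44744065-44746135 and chr1:44746581-44747919, both covered completely in both conditions. They lay in a region of 20251 bp, joined within 1 kb, and the next region with 2 missing sites was in the same domain, with a span of 13717 bp. The third such region by span (chr15:66635607-66644965) had 2 vehicle Olig2 peaks and 0 in LPC, with 5476 bp acetylated in vehicle and 6744 bp in LPC.

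On chromosome 6, a domain of 44.3 kb (chr6:127481349-127525692) had 3 vehicle Olig2 peaks and 0 in LPC. H3K27Ac covered 13.8 kb of it in vehicle and 14.8 kb in LPC. From its first missing site (chr6:127488269-127489111) the nearest LPC Olig2 peak was 338699 bp away. On chromosome 5, a domain of 99.4 kb (chr5:70874234-70973679) had 3 missing and 3 kept Olig2 sites, and H3K27Ac coverage was 45.8 kb in vehicle and 52.8 kb in LPC. Its 3 missing sites were each covered completely by H3K27Ac in both lists. On chromosome 8, a domain of 42.5 kb (chr8:52934993-52977538) had 3 vehicle Olig2 peaks and 0 in LPC, with 10.6 kb under H3K27Ac in vehicle and 14.2 kb in LPC.

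**Figure D4:**
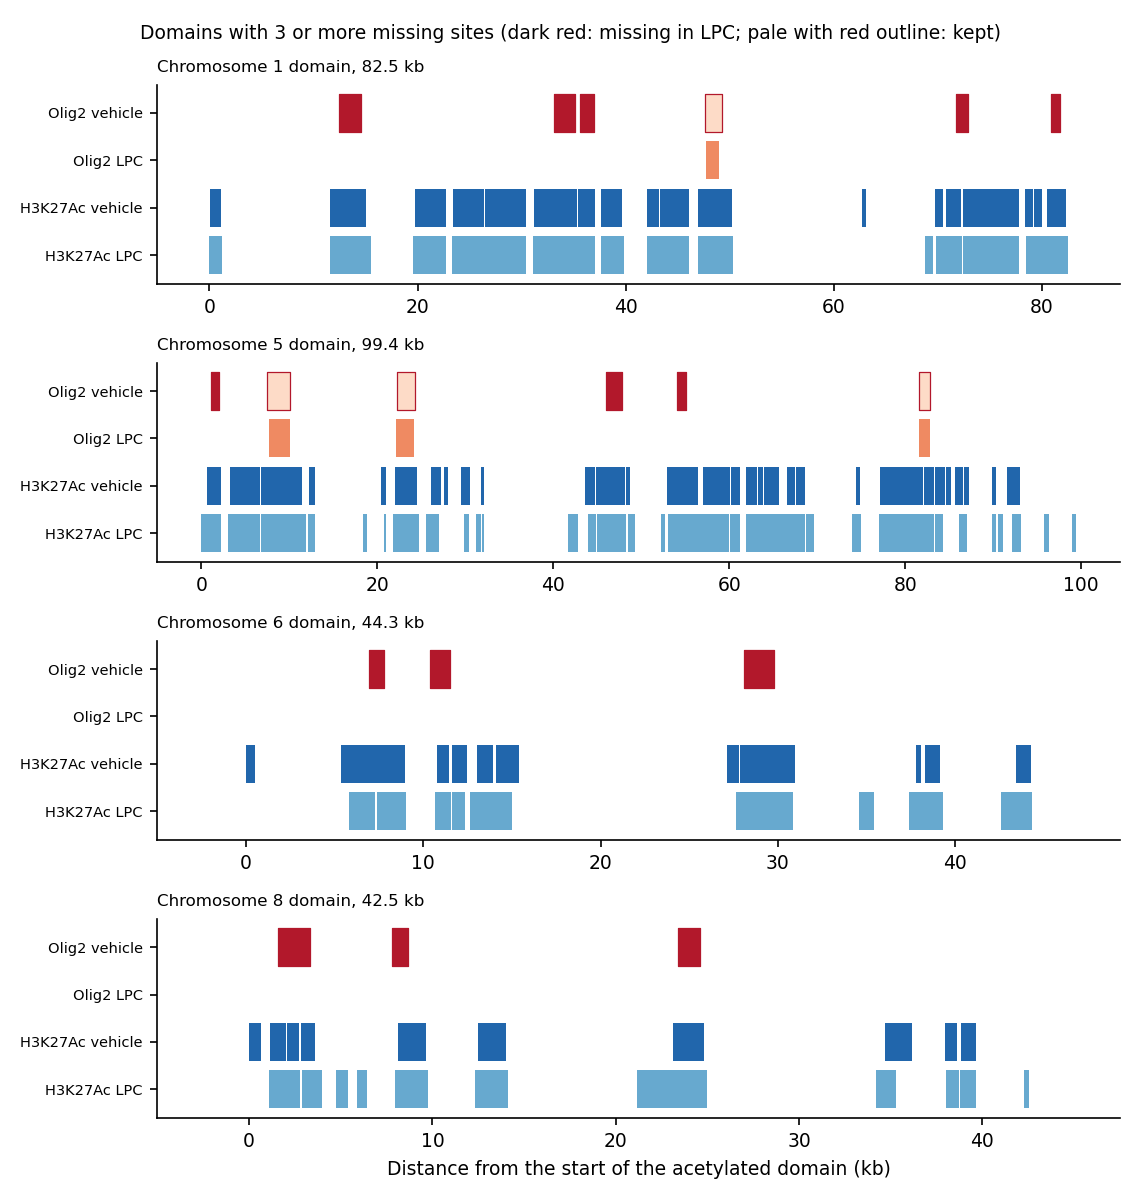
Called peaks in the 4 domains with 3 or more missing Olig2 sites, by distance in kb from the domain's start, with 1 row for each list. Vehicle Olig2 peaks are dark red where missing in LPC and pale with a red outline where kept; from top to bottom, the domains on chromosomes 1, 5, 6 and 8 have 5, 3, 3 and 3 missing and 1, 3, 0 and 0 kept Olig2 sites, over H3K27Ac peaks (blue) of both conditions.

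Among the 5 longest missing sites, acetylation was retained over 4 and mostly gone over the longest. That site (chr14:4362813-4368029) measured 5217 bp, with 4878 bp under vehicle H3K27Ac peaks and 1232 bp under LPC ones. The 2000 bp round its midpoint were fully acetylated in vehicle and had 0 bp of H3K27Ac peak in LPC, the largest fall of the set. It met the rule through its flank, and an LPC Olig2 peak lay 357 bp beyond its edge. The second longest (chr2:120977299-120980803, 3505 bp) and the fourth (chr7:72973919-72976868, 2950 bp) were covered over their full length in both conditions. The third (chr15:66388595-66391773, 3179 bp) had 3005 bp covered in vehicle and 3000 bp in LPC, with a gap at the same place in both lists. At the fifth (chr3:8814284-8816969, 2686 bp) 2 vehicle H3K27Ac peaks stood against 1 in LPC, and a kept Olig2 peak lay 914 bp away.

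**Figure D5:**
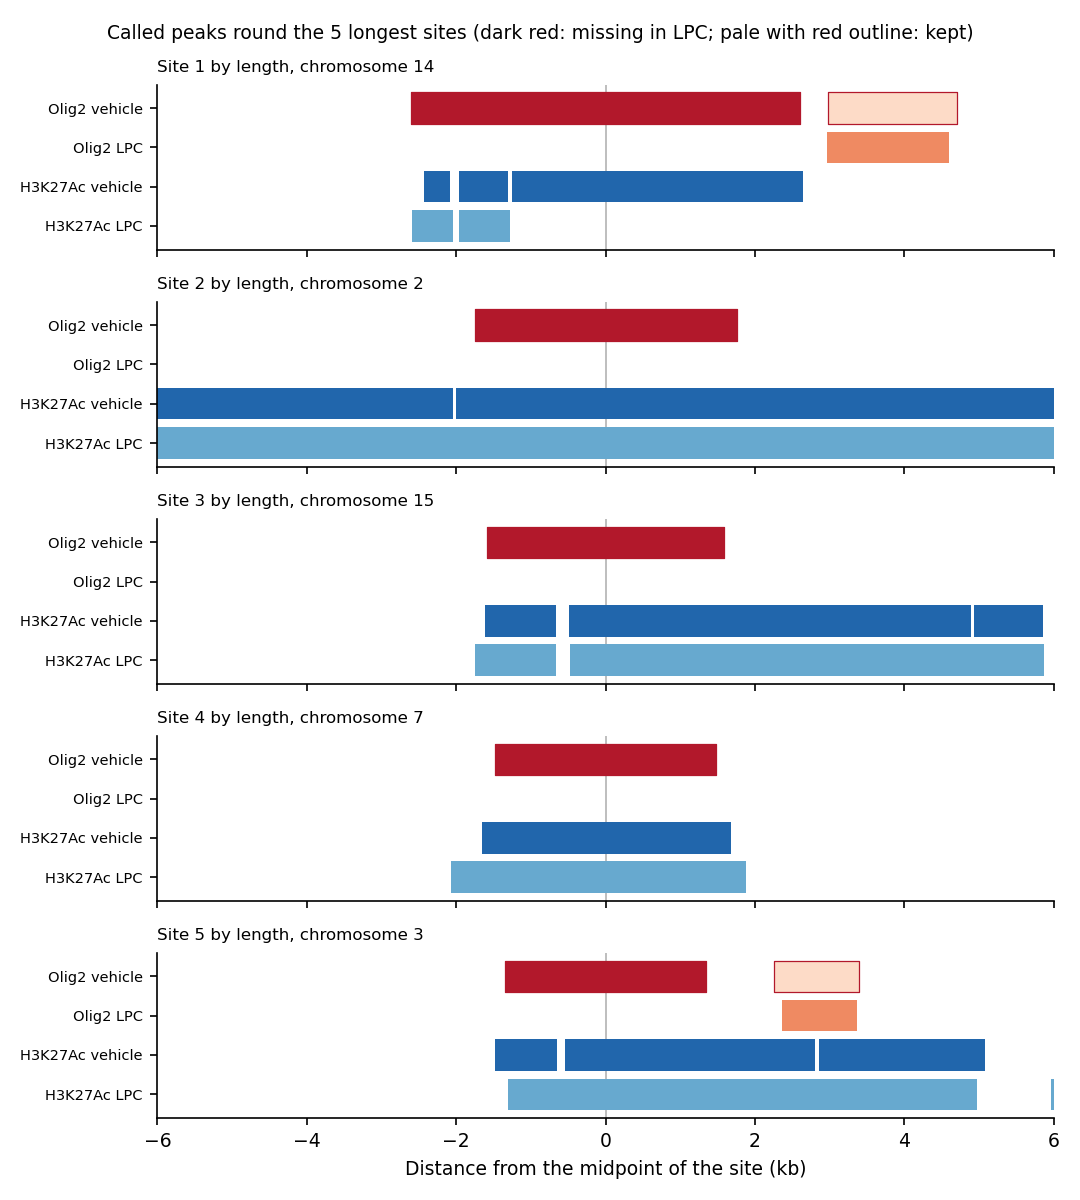
Called peaks of the 4 lists within 6 kb of the midpoint of the 5 longest missing Olig2 sites, by distance in kb. Vehicle Olig2 peaks are dark red where missing in LPC and pale with a red outline where kept. The longest site has 4878 bp under vehicle and 1232 bp under LPC H3K27Ac peaks, and the other 4 are acetylated in both conditions.

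The largest gains of acetylation were found at Olig2 peaks of 767 to 1245 bp and the largest falls, apart from the chromosome 14 site, at peaks of 680 to 1058 bp. The largest gain was at chr5:49211373-49212617, where coverage within 1 kb rose from 610 to 1996 bp. The next were chr1:94962475-94963334 (673 to 1758 bp), chr4:82527656-82528564 (843 to 1909 bp), chr7:119576036-119576951 (509 to 1568 bp) and chr4:87371114-87371880 (471 to 1517 bp). In vehicle, each of these 5 Olig2 peaks touched 1 H3K27Ac peak, which covered between 297 and 610 bp of it. In LPC between 723 and 1241 bp were covered, which was all of the Olig2 peak at chr1:94962475-94963334 and at chr4:82527656-82528564. After the chromosome 14 site, the largest falls were at chr5:142713795-142714474 (1342 to 428 bp), chr2:227021503-227022227 (1464 to 567 bp), chr14:8452634-8453509 (1437 to 555 bp) and chr15:60931764-60932821 (1310 to 489 bp). Those 4 sites were covered nearly in full in vehicle, as at chr2:227021503-227022227, where 725 of 725 bp were covered in vehicle and 303 bp in LPC.

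The values at the edge of the rule show how finely it divides neighbouring cases. The smallest contact with H3K27Ac was 26 bp of a 1094 bp Olig2 peak in vehicle (chr12:35461179-35462272), followed by 44 bp in vehicle (chr6:13098081-13099090) and 53 bp in LPC (chr3:38857161-38858157). Just outside, the missing Olig2 peak chr17:55148399-55149173 was acetylated in vehicle and came within 102 bp of an LPC H3K27Ac peak, chr18:24797145-24797714 came within 111 bp of a vehicle one and chr7:75463976-75464834 within 165 bp of a vehicle one. For Olig2, the smallest gaps to an LPC peak were 43 bp (chr2:120738016-120739861), 129 bp (chr4:49195850-49196841) and 169 bp (chr5:123339846-123341290). On the other side, the smallest overlap of a kept site was 5 bp (chr11:58693469-58695085), and the next were 510 bp (chr12:28864616-28865146) and 513 bp (chr16:32564478-32565399). Between 5 and 510 bp of overlap there was no doubly acetylated site, so a stricter minimum overlap below 510 bp would move 1 kept site into the set.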

How the data were processed

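ChIP-seq peak lists of 4 libraries were used. Per the submitters' processing notes they came from MACS 1.4.2 on rn4. The lists the authors deposited have 3 columns (chromosome, start, end), 1 list per library, and no score or count. Not given in the sources used here: thresholds, control library and aligner. Overlaps were computed with numpy 2.4.6 and pandas 2.3.3 under Python 3.11.15 and checked against bedtools 2.31.1 (difference of 0 members). Intervals were computed with SciPy 1.17.1, and figures were drawn with matplotlib 3.10.9. On 4965 simulated peaks, 629 of 629 members were recovered. The simulated sites stood far apart, with at most 1 H3K27Ac peak per condition, placed over the Olig2 midpoint. Close neighbours, several H3K27Ac peaks per site and contacts at the edge were thus not covered.

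Coordinates are 1-based. Shares carry exact binomial (Clopper-Pearson) 95% intervals, differences carry Newcombe intervals, and standardised differences carry normal ones, weighted by class size and leaving out classes with under 10 sites on either side. No test was run: the sites were chosen on these lists and there is 1 library per group. Named sites are the 5 longest, the 5 largest gains and falls, and 3 at each edge of the rule. Of the 8 regions tied at 2 members, the 3 of largest span are named, and all 4 domains with 3 or more members. Members, lists and measures were chosen with earlier results of these data known. Sequences and gene lists were not analysed here.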

Additional observations from a re-analysis of the deposited data

How the results depend on the processing

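The values below were recomputed under other overlap rules, length limits, windows and joining distances, some of them added after seeing the data (joining H3K27Ac peaks first, length classes, and the windows for falls). The number of missing acetylated sites was 620 with all lists limited to their longer 50% and 576 with the vehicle Olig2 list alone so limited. Under the other rules it ran from 802 to 989. The share of sites with more acetylated bases in LPC was 47.3% in a window of 500 bp, 63.9% in 2 kb and 47.2% with H3K27Ac peaks joined within 1 kb first. The share with a kept site in the same region was 2.44% when LPC Olig2 peaks within 1 kb counted as kept, 1.67% without joining and 7.74% with joining over 5 kb. The midpoint was acetylated in both conditions at 86.4% of sites when 50% of the Olig2 peak had to be covered, 87.3% with all lists limited by length, 85.2% with the vehicle Olig2 list so limited and 87.0% with peaks joined. The ratio of median lengths was 0.953 in the length-limited vehicle list. The difference in falls between missing and kept sites stayed between 4.39 and 7.27 points over its alternatives. The difference in loss between doubly acetylated and other Olig2 peaks was -2.01 points unstandardised, with an interval that included 0. It changed sign when standardised, to 4.66, 4.72 and 4.91 points over 5, 10 and 20 length classes. Against peaks without H3K27Ac it was -2.08 points unstandardised and 4.88, 5.58 and 6.12 points. The gap, profile, LPC midpoint, full-coverage and within-10% values had no alternative. The cause of these shifts was not tested. No paired analysis was possible because each antibody and condition had 1 library. With depth unknown, an Olig2 peak absent from the LPC list can still have had enrichment below the caller's threshold.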

Other observations

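Missing acetylated Olig2 sites were found on all 20 autosomes and on X. Their share among the doubly acetylated Olig2 sites of a chromosome was lowest on chromosome 16, with 19 of 83 (22.9%, 14.4 to 33.4), and highest among autosomes on chromosome 15, with 43 of 98 (43.9%, 33.9 to 54.3). On X it was 8 of 18 (44.4%, 21.5 to 69.2). These extremes were picked out of 21 chromosomes, their intervals cover counting error for single libraries, and the differences were not tested.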
